A study of Mus musculus with 12 samples.

Results

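The mitochondrial ribosome makes the few proteins encoded in mitochondrial DNA, all of them subunits of the respiratory chain and the ATP synthase. Its ribosomal RNAs come from mitochondrial DNA, whereas every one of its proteins is encoded in the nucleus and imported. Proteins of the large subunit, which joins amino acids, carry Mrpl symbols, and proteins of the small subunit, which reads the messenger RNA, carry Mrps symbols. Some descend from bacterial ribosomal proteins and others were gained by mitochondria. Brown and beige fat cells, which burn fuel for heat, are rich in mitochondria, and white fat cells have few.

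The genes were all entries whose symbol is Mrpl or Mrps followed by digits, without pseudogenes ending in -ps, with at least 1 FPKM (a level per length of transcript and per size of library) in 2 or more of 12 RNA sequencing libraries. There were 77 of them among 24888 entries, and the rule dropped 0 candidates. By known position in the ribosome, 50 belong to the large subunit, among them Mrps18a and Mrps30 in spite of their symbols, and 26 to the small subunit. The remaining gene, Mrps36, encodes a component of the alpha-ketoglutarate dehydrogenase complex and kept its ribosomal symbol from earlier work. Of the 76 ribosomal members, 46 were classed as having bacterial counterparts and 30 as specific to mitochondria. Mrps18a and Mrps18b were put in the mitochondria-specific class, although the related Mrps18c was put with the bacterial counterparts.

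The libraries came from cultured mouse adipocytes in 6 groups of 2. In the primary cultures, preadipocytes from inguinal white fat of C57BL/6 mice, labelled ATF7KO or WT, were differentiated with rosiglitazone, an agonist of the nuclear receptor PPARγ, into beige adipocytes (KO-labelled beige, WT beige), or without it into white adipocytes (KO-labelled white, WT white). C3H10t1/2, a mouse mesenchymal cell line that can become adipocytes, was differentiated with rosiglitazone either with ATF7 overexpressed or as a control. ATF7 is a transcription factor of the ATF2 family. Beige against white therefore compares cultures with and without the drug, and the other comparisons hold it constant. The labels did not describe how ATF7 was deleted or overexpressed.

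Atf7 itself stood at 7.26 and 7.94 FPKM in KO-labelled beige against 7.80 and 7.83 FPKM in WT beige, and at 6.88 and 7.73 FPKM in KO-labelled white against 9.10 and 7.10 FPKM in WT white, so the values per gene did not show a loss and every KO direction rests on the labels. In C3H10t1/2 it stood at 41.2 and 39.1 FPKM with overexpression against 8.52 and 9.09 FPKM in controls. Adipocyte markers were expressed in all 6 groups, and the muscle regulators Myod1 and Myog were listed at 0 in every library. Summed FPKM ranged from 225536 to 272371 per library, and 9844 to 10877 entries reached 1 FPKM. Read depth is unknown. The labels do not say if the replicates were independent cultures, and p-values therefore measure the spread between these libraries, which may be only technical.

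The genes were expressed together at moderate levels, highest in C3H10t1/2 and primary beige cultures and lowest in primary white cultures. Their summed FPKM was 1723 and 1898 in KO-labelled beige, 1681 and 1650 in WT beige, 891 and 893 in KO-labelled white, and 950 and 1127 in WT white. It was 2022 and 1878 in C3H10t1/2 with ATF7 overexpressed and 2083 and 2054 in the C3H10t1/2 controls. All beige libraries lay above all white ones, KO-labelled beige lay above WT beige, KO-labelled white lay below WT white, and overexpression lay below its control. The sum was 0.706% and 0.711% of all FPKM in KO-labelled beige against 0.676% and 0.682% in WT beige, 0.391% and 0.374% in KO-labelled white against 0.421% and 0.463% in WT white, and 0.742% and 0.762% with overexpression against 0.812% and 0.815% in controls. All FPKM here includes small RNA entries, whose part differed between libraries. With them left out, the share was 1.08% and 1.05% with overexpression against 1.11% and 1.09% in controls, a narrower gap. It was 0.929% and 0.949% in KO-labelled beige, 0.895% and 0.896% in WT beige, 0.553% and 0.536% in KO-labelled white, and 0.590% and 0.659% in WT white. These are bulk cultures, in which fewer cells of a type and less RNA per cell cannot be told apart.

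**Figure D1:**
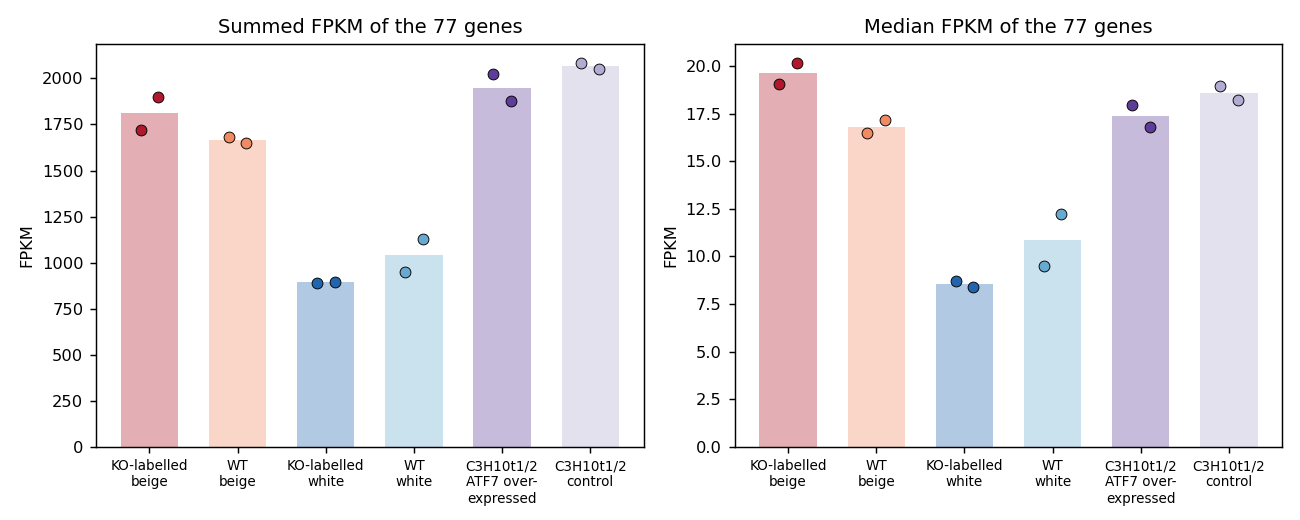
Summed (left) and median (right) FPKM of the 77 genes in each library; bars are means of 2 libraries and points are the libraries. The white libraries have sums of 891 to 1127 and the beige primary libraries sums of 1650 to 1898.

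The levels of single genes spread widely within a library. FPKM is a level per length, so genes can be set side by side on it. Mrps6, a small-subunit protein with a bacterial counterpart, had the highest mean over the 12 libraries, at 85.1 FPKM, followed by the large-subunit genes Mrpl33 (70.8), Mrpl30 (65.05) and Mrpl12 (62.6). The lowest means were those of Mrps25 (1.97), Mrpl19 (3.01), Mrps33 (3.74) and Mrpl35 (4.38). The median gene stood at 19.1 and 20.2 FPKM in KO-labelled beige, 16.5 and 17.2 in WT beige, 8.69 and 8.41 in KO-labelled white and 9.52 and 12.2 in WT white, and at 18.0 and 16.8 with overexpression and 19.0 and 18.2 in C3H10t1/2 controls. The median large-subunit gene was 0.934 to 1.13 times the median small-subunit gene in each of the 12 libraries.

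Mrps6 differed by line. It had 168 and 170 FPKM with overexpression and 146 and 147 FPKM in C3H10t1/2 controls, against 57.7 and 68.3 in KO-labelled beige, 60.1 and 60.6 in WT beige, 33.7 and 29.1 in KO-labelled white and 37.0 and 43.0 in WT white. The cell line lay above every primary library, although line and primary culture differ in origin and were not tested against each other. The pattern was not particular to Mrps6. Mrpl12 had at least 86.7 FPKM in every C3H10t1/2 library and at most 70.2 FPKM in every primary one. Mrpl42 and Mrpl54 also lay above every primary library in the line, whereas genes such as Mrpl24 did not. Slc5a3, the myo-inositol transporter gene, lies within the locus of Mrps6 (chromosome 16, 92058336 to 92112227, mm10), and reads of the pair may not be fully separated. In log2 fold change, KO-labelled against WT white gave −0.82 for Slc5a3 and −0.34 for Mrps6. KO-labelled beige against white gave 0.64 and 0.98. The signs differed in WT beige against white (−0.04 and 0.59) and in KO-labelled against WT beige (−0.14 and 0.06). Sharing of reads was not tested. In all, 11 of the 77 genes overlap another entry, among them Mrpl19, Mrpl41, Mrpl48, Mrpl49 and Mrps25. The library kit marked the strand, per the labels, but the use of strand in counting is not given in the sources used here, which leaves the values of these 11 uncertain.

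**Figure D2:**
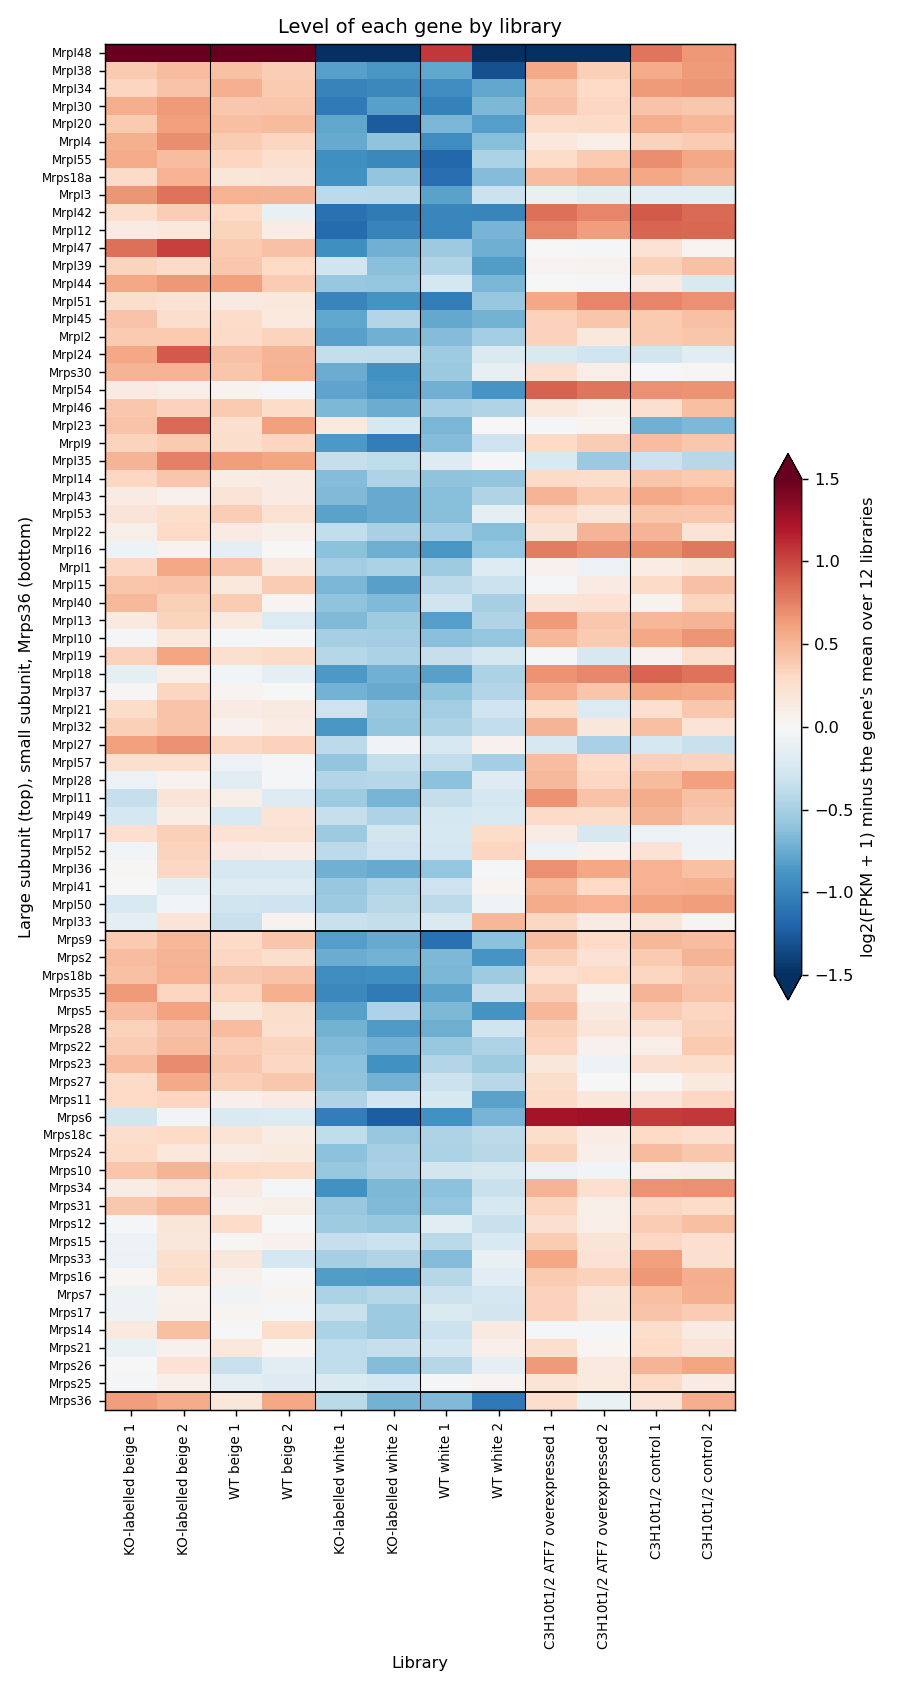
Each row is a gene, ordered within the large subunit, the small subunit and Mrps36 by its WT beige minus white difference, and each column a library; color is log2(FPKM + 1) minus the gene's mean over the 12 libraries, and extremes beyond 1.5 share the end colors. White libraries are mostly blue, beige and C3H10t1/2 libraries mostly red, and Mrpl48 at the top has 5 libraries listed at 0.

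In WT cultures, 62 of the 77 genes were higher in beige than in white adipocytes and 0 were lower. Among all 11294 entries tested, 21.6% were called higher in beige and 32.1% lower. Calls were made with limma on log2(FPKM + 1), at a Benjamini-Hochberg adjusted p under 0.05 over all entries tested, and fold changes on that scale understate the change of low genes. The median log2 fold change of the genes was 0.66, against −0.10 for all entries. The groups did not overlap, with beige higher, for 66 of the 77 genes (31.3% of all entries), and with beige lower for 1 (46.2%). Beige was higher on both subunits: 41 of 50 large-subunit genes (median 0.71) and 20 of 26 small-subunit genes (median 0.56) were called. Of genes with bacterial counterparts 38 of 46 were called (median 0.61), and of mitochondria-specific genes 23 of 30 (median 0.78).

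Among the genes with no library at 0, the 4 largest rises in WT beige were those of Mrpl38, Mrpl34, Mrpl30 and Mrps36. Mrpl48 was also called higher, with 1 WT white library listed at 0, and is left out of this ranking. Mrpl38, a mitochondria-specific protein (chromosome 11, 116131817 to 116138868), had 19.8 and 18.7 FPKM in WT beige against 7.87 and 5.12 in WT white (log2 fold change 1.45, SE 0.16, adjusted p = 7.55e-05). Both beige libraries lay well above both white ones. Mrpl34, a small protein with a bacterial counterpart (chromosome 8, 71464926 to 71465753), had 57.4 and 52.2 FPKM in WT beige against 20.3 and 22.6 in WT white (1.32, SE 0.10, adjusted p = 1.17e-05), again with wide separation. Mrpl30 had 78.8 and 79.7 FPKM in WT beige against 29.0 and 36.8 in WT white (1.25, SE 0.13, adjusted p = 7.62e-05). Mrps36, the dehydrogenase component, had 4.68 and 6.58 FPKM in WT beige against 2.20 and 1.42 in WT white (1.24, SE 0.18, adjusted p = 0.000478), so 1 of these 4 rises was not that of a ribosomal protein.

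Further genes fixed for their roles also rose in WT beige. Mrpl12, a stalk protein that recruits translation factors and in human cells binds the mitochondrial RNA polymerase, had 70.2 and 60.3 FPKM in WT beige against 27.7 and 33.8 in WT white (1.07, SE 0.13, adjusted p = 0.000134). Mrpl10, which anchors the stalk, had 24.5 and 24.3 against 15.7 and 16.2 FPKM (0.58, SE 0.10, adjusted p = 0.000896). Neither gene overlapped between beige and white. Mrps12, a protein of the decoding centre, had 15.9 and 13.03 FPKM in WT beige against 11.4 and 10.1 in WT white (0.39, SE 0.12, adjusted p = 0.0267). Its groups were separate but close, and its call was lost with small RNA entries left out (adjusted p = 0.0746), without WT beige replicate 1 (0.198) and without WT white replicate 2 (0.128).

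The genes that did not pass the test in WT cultures were spread over both subunits. The smallest differences were those of Mrps26 (0.04), Mrpl36 (0.05), Mrpl41 (−0.07) and Mrpl50 (−0.08). Mrpl50, a mitochondria-specific large-subunit protein, had 8.75 and 8.67 FPKM in WT beige against 8.14 and 10.5 in WT white, with the white libraries on either side of the beige ones. The sign of each of these 4 differences turned under at least 1 other scaling or without 1 library. Mrpl33, among the most abundant, had 55.2 and 72.5 FPKM in WT beige against 59.5 and 98.6 in WT white (−0.27, SE 0.23, adjusted p = 0.349), and its groups overlapped.

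In KO-labelled cultures, 75 of the 77 genes were higher in beige than in white and 0 were lower, against 26.6% of all entries called higher and 34.3% called lower. The median log2 fold change was 0.96, against −0.06 for all entries. For all 77 genes both beige libraries lay above both white libraries, which held for 36.2% of all entries, and the reverse held for 0 genes and 44.7% of all entries. Calls covered 48 of 50 large-subunit genes (median 0.95) and 26 of 26 small-subunit genes (median 0.96). The genes not called were Mrpl33 (0.37, SE 0.23, adjusted p = 0.199) and Mrpl49, a mitochondria-specific large-subunit protein (0.33, SE 0.16, adjusted p = 0.108).

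Mrpl48, listed at 0 in both KO-labelled white libraries, was called higher but is left out of this ranking and described with its zeros further on. Mrpl47 led the genes with no library at 0. This protein, of the large subunit, with a bacterial counterpart near the exit of the peptide tunnel (chromosome 3, 32727497 to 32736755), had 18.1 and 20.9 FPKM in KO-labelled beige against 4.68 and 5.55 in KO-labelled white (1.75, SE 0.12, adjusted p = 3.56e-06). Both beige libraries lay far above both white ones. Mrpl30 had 87.3 and 93.1 FPKM in KO-labelled beige against 27.9 and 33.3 in KO-labelled white (1.53, SE 0.13, adjusted p = 1.65e-05). Mrpl20, which binds the large ribosomal RNA, had 54.3 and 63.6 against 23.5 and 16.7 FPKM (1.52, SE 0.16, adjusted p = 4.29e-05). None of these overlapped. Mrps35, a mitochondria-specific small-subunit protein, had 25.7 and 20.4 FPKM in KO-labelled beige against 7.78 and 7.21 in KO-labelled white (1.49, SE 0.17, adjusted p = 7.19e-05), with clear separation.

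At the other end in KO-labelled cultures, the differences were small. Mrps25 had 1.92 and 2.10 FPKM in KO-labelled beige against 1.53 and 1.45 in KO-labelled white (0.27, SE 0.10, adjusted p = 0.0366). Mrps21, a small-subunit protein with a bacterial counterpart, had 49.98 and 56.1 against 41.0 and 42.1 FPKM (0.34, SE 0.13, adjusted p = 0.0456), and Mrpl50 had 9.25 and 10.7 against 7.21 and 7.997 FPKM (0.35, SE 0.13, adjusted p = 0.0409). The beige libraries were higher in all of these, by little. Each of these 3 calls was lost without KO-labelled beige replicate 2 or without either KO-labelled white replicate, with adjusted p between 0.0713 and 0.193.

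**Figure D3:**
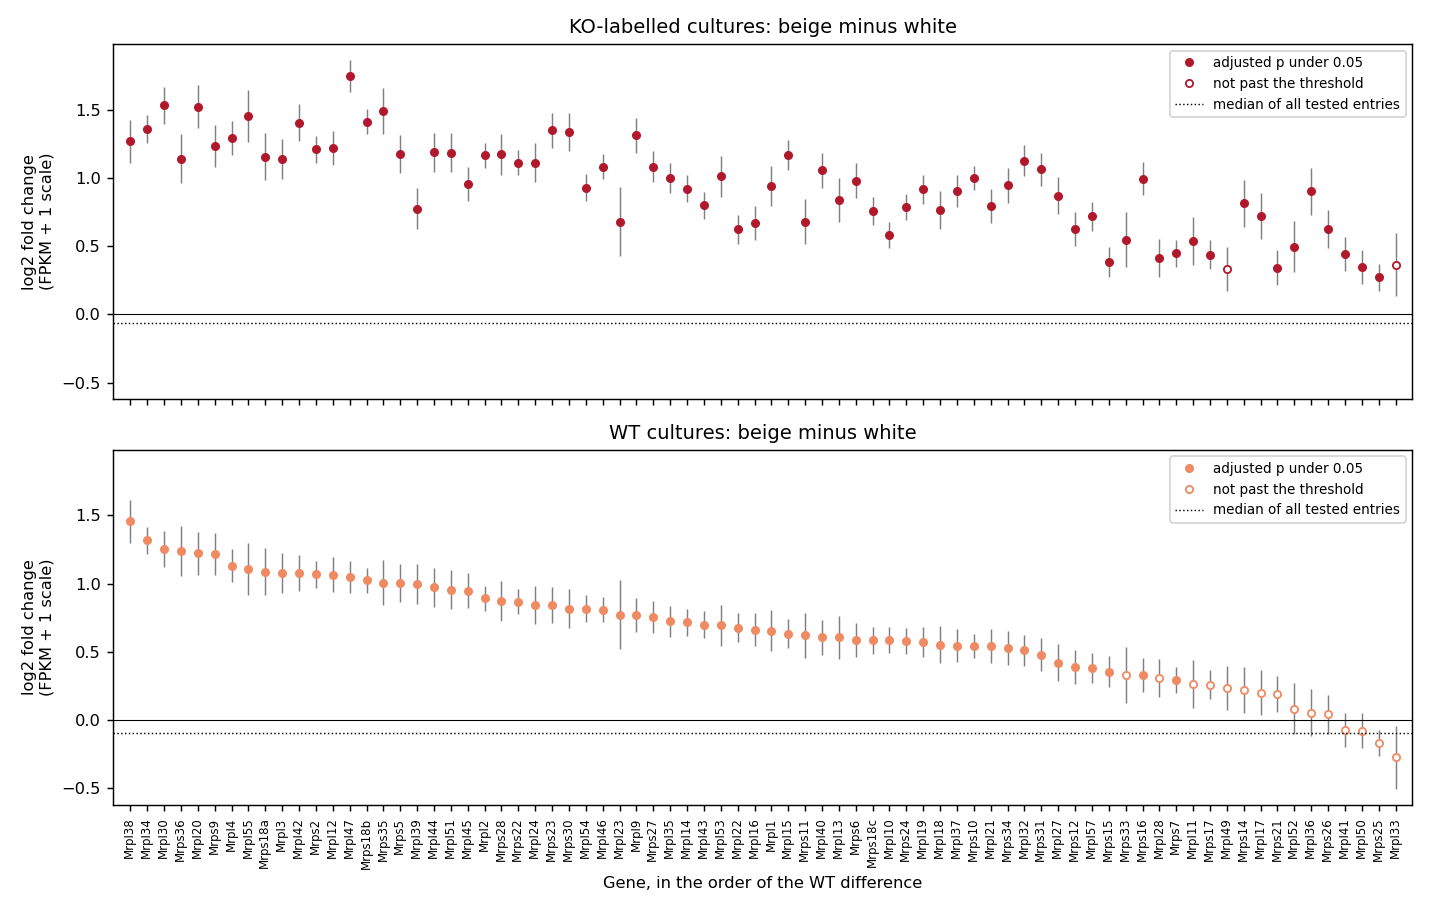
Beige minus white log2 fold change (FPKM + 1 scale) of 76 genes in KO-labelled (top) and WT (bottom) cultures, with standard errors; filled points have an adjusted p under 0.05 and the dotted line is the median of all tested entries. Mrpl48 is not plotted because it is listed at 0 in white libraries. Nearly all points lie above the dotted line in both panels.

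Beige and white cultures also differed in their cell markers. Markers of macrophages summed to 19.2 to 24.2 FPKM in KO-labelled beige and 21.1 to 22.5 in WT beige, against 570 to 592 in KO-labelled white and 422 to 434 in WT white, and 9 of 9 were lower in beige in both genotypes. Stromal progenitor markers summed to 127 to 135 in KO-labelled beige and 116 to 122 in WT beige, against 644 to 701 in KO-labelled white and 495 to 554 in WT white, with 7 of 7 tested lower. Adipocyte markers summed to 11683 to 13148 in KO-labelled beige and 12043 to 12627 in WT beige, against 3774 to 3821 in KO-labelled white and 4849 to 5609 in WT white, with 9 of 10 higher and 1 lower in KO-labelled and 7 of 10 higher and 1 lower in WT cultures. No macrophage or progenitor marker was listed at 0 in both libraries of a primary group. The beige markers, with Ucp1 listed at 0 in all white libraries, summed to 607 to 621 FPKM in KO-labelled beige and 374 to 407 in WT beige, against 23.9 to 26.5 in KO-labelled white and 30.1 to 31.4 in WT white. The part of these cell types in the ribosomal difference was not tested.

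The same comparison can be read on neighbouring groups of genes. Of the 82 tested nuclear-encoded respiratory subunits, 80 were higher in beige and 0 lower in either genotype, with medians of 1.65 in KO-labelled and 1.41 in WT cultures, above the 0.96 and 0.66 of the mitochondrial ribosomal genes. Of the 77 tested proteins of the cytosolic ribosome, 3 were higher and 12 lower in KO-labelled cultures (median −0.13), and 1 was higher and 14 were lower in WT cultures (median −0.19). The differences between these lists were not tested.

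Of the 6 ribosomal proteins without an Mrp symbol, all 6 were higher in KO-labelled beige (median 0.95), and 5 of 6 in WT beige (median 0.55). They were not tested against the genes with an Mrp symbol. Aurkaip1, of the small subunit, had 33.8 and 31.3 FPKM in WT beige against 18.4 and 15.2 in WT white (0.92, SE 0.11, adjusted p = 0.00014). Ptcd3, an RNA-binding protein of the small subunit, differed by 0.86 (SE 0.13), Ict1, a large-subunit protein that frees stalled ribosomes, by 0.63 (SE 0.13), and Dap3, a GTP-binding small-subunit protein, by 0.47 (SE 0.14), all called. Chchd1, of the small subunit, had a WT difference of 0.37 (SE 0.14, adjusted p = 0.0536).

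Factors that act on the ribosome were counted in the same way, again with no test between lists. Of 17 translation factors and mRNA partners, 13 were higher in KO-labelled beige (median 0.75) and 10 in WT beige (median 0.48), and 0 were lower. Those with the lowest p in WT were Lrpprc, which stabilises mitochondrial mRNAs (1.21, SE 0.09), Taco1, an activator of cytochrome oxidase translation (1.01, SE 0.10), Letm1, an inner membrane protein (1.10, SE 0.11), and Gfm1, an elongation factor (0.83, SE 0.13). The release factors Mtrf1 (0.02) and Mtrf1l (−0.16) and the formyltransferase Mtfmt (0.08) did not pass the test. Of 6 genes of mitochondrial transcription, 4 were higher in KO-labelled beige, and in WT beige Tefm (0.62), Tfam (0.46) and Polrmt (0.42) were higher while Mterf2 was lower (−0.46).

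Of 27 assembly factors, 17 were higher in KO-labelled beige (median 0.63) and 11 in WT beige (median 0.23), and 1 was lower in each. Afg3l2, a subunit of the protease that matures the Mrpl32 protein, had 29.4 and 28.3 FPKM in WT beige against 10.7 and 11.4 in WT white (1.31, SE 0.09, adjusted p = 6.1e-06). The helicase Ddx28 (1.35, SE 0.15) and Rnmtl1, which methylates the large ribosomal RNA (1.003, SE 0.14), were called as well. The factor that was lower was Mterf4, which guides a methyltransferase to the ribosome. It had 6.80 and 9.55 FPKM in KO-labelled beige against 61.7 and 62.3 in KO-labelled white (−2.80, SE 0.17, adjusted p = 2.12e-06), and 7.02 and 7.91 FPKM in WT beige against 46.8 and 35.01 in WT white (−2.30, SE 0.17, adjusted p = 9.68e-06). Its white libraries lay far above its beige ones. The C3H10t1/2 cultures, all with rosiglitazone, had 42.6 to 47.6 FPKM of Mterf4, within the range of the primary white libraries.

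Sequences upstream of the gene starts were examined because most of the genes were higher in beige. Windows of 300 bases (250 before and 50 after the start) from RefSeq on GRCm38.p6 were at hand for 68 of the 77 genes. In each window, 7 motifs were searched on both strands. The NRF1 motif GCGCATGCG was in 10.29% of the genes, against 1.95% of all genes in the table and 4.38% of those tested in the primary cultures. The ETS motif CCGGAAG was in 36.76%, against 9.93% and 20.76%, and the YY1 motif AAGATGGCG in 11.76%, against 1.64% and 3.86%. The SP1 motif GGGCGG was in 50% of them, against 38.2% and 70.48%. The cAMP response element TGACGTCA, the site type that factors of the ATF family are known to bind, was in 2.94%, against 2.03% and 3.66%, the E-box CACGTG in 7.35%, against 8.09% and 12.24%, and the ERR motif TCAAGGTCA in 0, against 0.47% and 0.28%. The last letters of the ETS motif are the same as the opening letters of the YY1 motif, so both can share bases. A gene with several windows counted where any held the motif.

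The windows below show the range among the genes described here. Each is the 150 bases before the start, read 5′ to 3′ on the gene's strand, with motif matches in capitals. Mrpl34 is a leading riser in WT beige, Mrpl9 and Mrpl32 are among the genes whose KO-labelled libraries lay above both WT libraries in beige and below both in white, without passing the test in either, Mrpl22 holds both ETS and NRF1 motifs, Mrpl16 holds the cAMP response element, and Mrpl50 had hardly any WT difference and no match.
Mrpl34, chr8:71464776-71464925, plus strand: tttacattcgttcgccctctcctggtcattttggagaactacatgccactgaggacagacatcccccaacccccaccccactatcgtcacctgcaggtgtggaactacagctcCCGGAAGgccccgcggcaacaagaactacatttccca
Mrpl9, chr3:94443186-94443335, plus strand: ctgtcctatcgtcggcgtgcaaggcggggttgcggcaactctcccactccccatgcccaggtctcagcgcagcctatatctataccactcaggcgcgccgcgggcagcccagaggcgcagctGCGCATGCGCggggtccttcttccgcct
Mrpl32, chr13:14613038-14613187, minus strand: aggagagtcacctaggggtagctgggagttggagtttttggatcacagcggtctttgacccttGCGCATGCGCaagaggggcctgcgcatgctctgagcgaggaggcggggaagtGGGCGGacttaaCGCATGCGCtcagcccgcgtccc
Mrpl22, chr11:58171514-58171663, plus strand: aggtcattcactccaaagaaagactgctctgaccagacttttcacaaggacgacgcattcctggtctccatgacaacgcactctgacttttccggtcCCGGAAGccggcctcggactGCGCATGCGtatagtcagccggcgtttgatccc
Mrpl16, chr19:11770265-11770414, plus strand: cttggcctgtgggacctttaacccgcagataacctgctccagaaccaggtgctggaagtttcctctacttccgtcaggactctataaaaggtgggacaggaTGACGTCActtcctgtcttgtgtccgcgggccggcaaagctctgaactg
Mrpl50, chr4:49521084-49521233, minus strand: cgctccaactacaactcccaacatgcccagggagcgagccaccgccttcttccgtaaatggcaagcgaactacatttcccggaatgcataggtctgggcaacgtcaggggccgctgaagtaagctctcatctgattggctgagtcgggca

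Genes with and without a motif are set side by side without a test between them. In WT cultures, 6 of the 7 genes with an NRF1 motif were called higher (median 0.67), as were 47 of the 61 without it (median 0.66). With the ETS motif 19 of 25 were called higher (median 0.58), and without it 34 of 43 (median 0.66). In KO-labelled cultures the medians were 0.77 with and 0.96 without the NRF1 motif, and 0.80 with and 0.98 without the ETS motif. The cAMP response element was in Mrpl16 and Mrpl49, whose median was 0.50 in KO-labelled and 0.45 in WT cultures, against 0.97 and 0.66 for the 66 genes without it. Mrpl16, a large-subunit protein with a bacterial counterpart, had 24.5 and 23.3 FPKM with ATF7 overexpressed and 23.4 and 25.01 in C3H10t1/2 controls, with overlapping libraries, and Mrpl49 had 11.2 and 11.03 against 13.1 and 12.2 FPKM (−0.17, SE 0.07, adjusted p = 0.281). A match is a run of letters and not a measured binding site.

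Many of the genes share their start region with a neighbour. For 33 of the 77 genes (42.9%), another protein-coding gene starts within 1000 bases on the opposite strand in the GENCODE annotation of the same build, against 16.6% of the tested protein-coding genes and 10.9% of all. Among the 24 such neighbours that were tested and are not Mrp genes, 7 were higher and 2 lower in WT beige. The shares of all tested entries were 21.6% and 32.1%. The median log2 fold change of the neighbours was 0.11, against −0.10 for all entries. In KO-labelled beige against white, 8 were higher and 2 lower, with a median of 0.12. The shares of all entries there were 26.6% and 34.3%, and their median was −0.06. Mrpl47 and its neighbour Ndufb5, a subunit of complex I, rose side by side in WT beige (1.05 and 1.04). In the pair of Mrpl36 and Ndufs6, also of complex I, Ndufs6 rose by 1.39 in WT beige (adjusted p = 6.9e-06). Mrpl36 had 0.05 there (adjusted p = 0.816), with WT white libraries at 10.6 and 16.1 FPKM. In KO-labelled beige against white both were called higher, Ndufs6 by 1.52 (adjusted p = 2.57e-06) and Mrpl36 by 0.90 (adjusted p = 0.00187). GENCODE starts Mrpl36 at 73328513, near the Ndufs6 start at 73328542. The Mrpl36 locus in the deposited values starts at 73331009, more than 1000 bases away, so this pair holds in GENCODE only. These 2 pairs were picked after their values were seen.

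Between KO-labelled and WT beige adipocytes, 0 of the 77 genes passed the test in limma, against 0.151% of all entries. At an unadjusted p under 0.05, 9 were higher and 0 lower, against 6.62% and 3.65% of all entries. The median log2 fold change was 0.12, against 0.04 for all entries, and 66 genes (85.7%) had a value above 0, as did 60.9% of all entries. In 36 genes both KO-labelled libraries lay above both WT libraries, and in 1 below, against 27.1% and 14.1% of all entries. The median was 0.041 after quantile normalization and 0.064 without KO-labelled beige replicate 2.

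The largest difference in beige was that of Mrpl47, which was chosen after its values were seen. It had 18.1 and 20.9 FPKM in KO-labelled beige against 13.1 and 13.7 in WT beige (0.51, SE 0.12, adjusted p = 0.249, unadjusted p = 0.00217). The groups lay apart by more than their spread, yet the adjusted p missed the threshold. Next by p were Mrps31, a mitochondria-specific small-subunit protein (0.38, SE 0.12, adjusted p = 0.366), Mrpl57 (0.30, SE 0.11, adjusted p = 0.413) and Mrpl32 (0.30, SE 0.11, adjusted p = 0.424), the last 2 on the large subunit.

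Beige markers were also set side by side between genotypes. They summed to 607 to 621 FPKM in KO-labelled beige against 374 to 407 in WT beige, and all 6 tested had a difference above 0 (median 0.57) without passing the test. In the interaction, Cox8b, a subunit of cytochrome oxidase typical of brown and beige fat, was the 1 of 6 called (1.05, SE 0.16, adjusted p = 0.0416). Their part in the ribosomal values was not tested.

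Between KO-labelled and WT white adipocytes, 0 of the 77 genes passed the test, against 1.89% of all entries. Here the values leaned the other way. At an unadjusted p under 0.05, 0 were higher and 20 lower, against 12.9% and 7.03% of all entries. The median log2 fold change was −0.17, against 0.03 for all entries, and 18 genes were above 0, as were 55.6% of all entries. The median was −0.10 without WT white replicate 2, with 24 genes above 0, and −0.24 without WT white replicate 1, with 13 above 0. The WT white replicates correlated at r = 0.909 over the 77 genes, the lowest of the 6 groups. Both KO-labelled libraries lay below both WT libraries in 39 genes and above them in 2, against 21.2% and 32.1% of all entries. The median was −0.14 over the large subunit and −0.24 over the small subunit, and −0.14 over genes with bacterial counterparts and −0.22 over mitochondria-specific ones.

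Mrps16, a small-subunit protein with a bacterial counterpart, came nearest to the threshold in white (chosen after its values were seen; chromosome 14, 20391231 to 20393555). It had 22.1 and 21.98 FPKM in KO-labelled white against 29.8 and 35.7 in WT white (−0.54, SE 0.12, adjusted p = 0.0659). The KO-labelled libraries were nearly equal and both below WT. It was called lower with quantile normalization, with median centring and with entries at 0 left out. Without WT white replicate 1, Mrpl36, Mrpl53, Mrpl9, Mrps16 and Mrps30 were called lower. Mrpl9 (−0.47, SE 0.13, adjusted p = 0.102), Mrpl15 (−0.39, SE 0.11, adjusted p = 0.104) and Mrps18b (−0.32, SE 0.09, adjusted p = 0.119) followed.

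Among the assembly factors, Fastkd2, an RNA-binding protein of mitochondrial granules, was called lower in KO-labelled white, with 1.81 and 2.11 FPKM against 3.19 and 3.45 FPKM in WT white (−0.55, SE 0.11, adjusted p = 0.0475). The other tested genes of the assembly, translation factor and transcription lists, and of ribosomal proteins without an Mrp symbol, were not called in either genotype comparison. For Fastkd2, both KO-labelled white libraries lay below both WT white libraries.

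KO-labelled and WT white cultures also differed in markers. Macrophage markers summed to 570 to 592 FPKM in KO-labelled white against 422 to 434 in WT white, and 5 of 9 were called higher. Adipocyte markers summed to 3774 to 3821 FPKM against 4849 to 5609 FPKM, with 2 of 10 called lower. Stromal progenitor markers summed to 644 to 701 FPKM against 495 to 554 FPKM, with 1 of 7 called higher. Their part in the ribosomal difference was not tested. In beige cultures none of the markers of these 3 cell types was called between genotypes, and macrophage markers summed to 19.2 to 24.2 in KO-labelled and 21.1 to 22.5 FPKM in WT cultures.

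The change of the genotype difference with rosiglitazone was tested as an interaction, and 0 of the 77 genes passed, against 0.292% of all entries. At an unadjusted p under 0.05, 19 were higher and 0 lower, against 7.94% and 8.88% of all entries. The median interaction was 0.27, against 0.01 for all entries, and 71 genes were above 0, against 51.3% of all entries. In 15 of the 77 genes (19.5%), KO-labelled libraries lay above WT in beige and below WT in white with no overlap in either, which held for 6.28% of all entries. The reverse held for 0 genes and 5.13% of all entries.

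The 15 genes were Mrpl2, Mrpl9, Mrpl15, Mrpl17, Mrpl19, Mrpl32, Mrpl36, Mrpl41, Mrpl50, Mrps10, Mrps18b, Mrps22, Mrps23, Mrps24 and Mrps25, chosen for this pattern. Mrpl32 is an example of it. It had 19.6 and 20.7 FPKM in KO-labelled beige against 15.8 and 16.4 in WT beige, and 7.77 and 9.66 FPKM in KO-labelled white against 10.5 and 11.5 in WT white. KO-labelled libraries thus took both the highest and the lowest places among the primary cultures (interaction 0.62, SE 0.16, adjusted p = 0.162). Mrpl47 had the lowest interaction p (0.69, SE 0.17, adjusted p = 0.151), with 4.68 and 5.55 FPKM in KO-labelled white against 6.41 and 5.50 in WT white, where the groups overlapped.

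In C3H10t1/2 with ATF7 overexpressed, few of the genes passed the test. Of the 77, 1 was called higher and 1 lower, 2 in all, against 1.49% of all 9981 entries tested (0.431% higher and 1.06% lower). The median log2 fold change was −0.10, against −0.02 for all entries, and 16 genes were above 0, as were 44.3% of all entries. At an unadjusted p under 0.05, 3 were higher and 19 lower, against 6.29% and 10.9% of all entries. Overexpressing libraries lay below both controls in 36 genes and above both in 5, against 28.8% and 20.3% of all entries. Small RNA entries took 27.5% to 31.5% of FPKM with overexpression and 25.2% to 27.1% in controls, and with them left out the median was −0.035. Beige markers summed to 575 to 732 FPKM with overexpression against 990 to 1045 FPKM in controls, and 4 of 5 tested were called lower. Cox8b made up most of these sums, with 667 and 512 FPKM against 821 and 792 FPKM. Dio2 and Ppargc1a were too low to be tested. Dio2 was listed at 0 in both overexpressing libraries and at 0 and 0.011 FPKM in controls. Ppargc1a had 0.303 and 0.297 FPKM with overexpression against 0.167 and 0.204 FPKM in controls. The part of the beige markers in the ribosomal values was not tested.

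Mrpl23, a large-subunit protein with a bacterial counterpart near the peptide exit (chromosome 7, 142533117 to 142540742), rose with overexpression. It had 5.84 and 6.08 FPKM in overexpressing cells against 3.19 and 3.32 in controls (0.71, SE 0.08, adjusted p = 0.0150). The replicates agreed closely and the groups lay apart. Its adjusted p was 0.0849 with no filter on low values, and 0.0898 and 0.0915 without replicate 1 and replicate 2 of the overexpressing cells. In the primary cultures it had 8.24 and 11.5 FPKM in KO-labelled beige, 7.16 and 9.60 in WT beige, 6.66 and 4.85 in KO-labelled white and 3.28 and 5.93 in WT white, with overlapping genotypes in both.

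**Figure D4:**
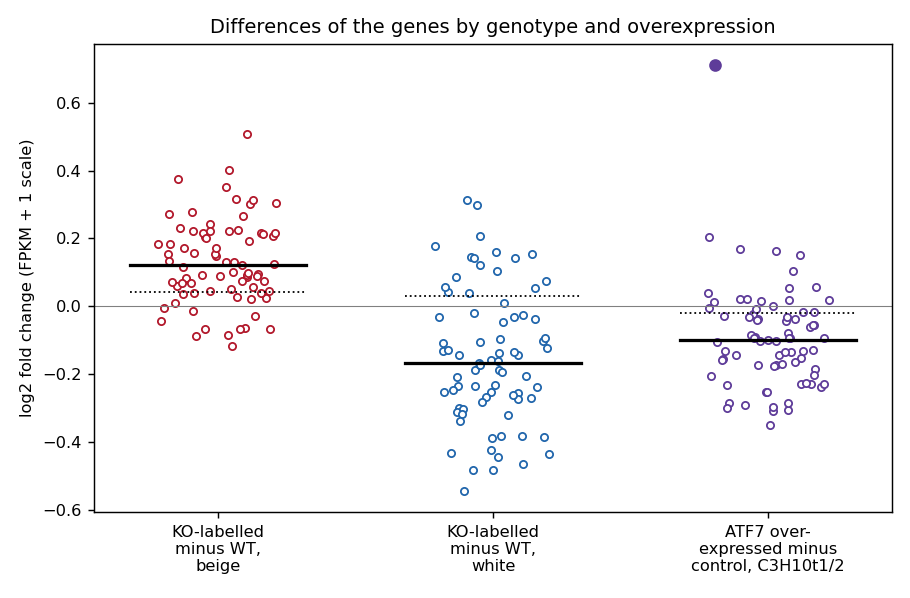
Log2 fold change (FPKM + 1 scale) of 76 genes, without Mrpl48, for KO-labelled minus WT in beige and in white and for ATF7 overexpression minus control in C3H10t1/2; each point is a gene, thick lines are the medians of all 77 genes (0.12, −0.17 and −0.10) and dotted lines those of all tested entries. The filled point is Mrpl23, the only plotted gene past the threshold.

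Mrpl48 was the only gene listed at 0 in both libraries of a group, and this happened in 2 groups. It encodes a mitochondria-specific large-subunit protein (chromosome 7, 100549117 to 100607996). It had 12.9 and 15.6 FPKM in KO-labelled beige, 10.1 and 11.9 in WT beige, 0 and 0 in KO-labelled white, and 7.06 and 0 in WT white. In C3H10t1/2 it was listed at 0 in both overexpressing libraries, against 5.72 and 5.04 FPKM in controls. The values were therefore either at least 5.04 FPKM or exactly 0, with nothing between, and WT white held one of each kind.

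Since a listed 0 can stand for an estimate that failed, no fold is given. Mrpl48 was called lower with overexpression (adjusted p = 0.000264), a value that depends on the pseudocount, and it dropped out of the test without either control library. Of the 9690 entries with at least 1 FPKM in both controls, 7 (0.0722%) were listed at 0 in both overexpressing libraries, and of 9673 such entries in KO-labelled beige, 22 (0.227%) were at 0 in KO-labelled white. The locus overlaps that of Rab6a, a regulator of Golgi transport, whose differences ran from 0.01 to 0.21 in the 5 comparisons between groups and were not called in any. Rab6a itself starts within 1000 bases of Mrpl48 on the opposite strand.

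**Figure D5:**
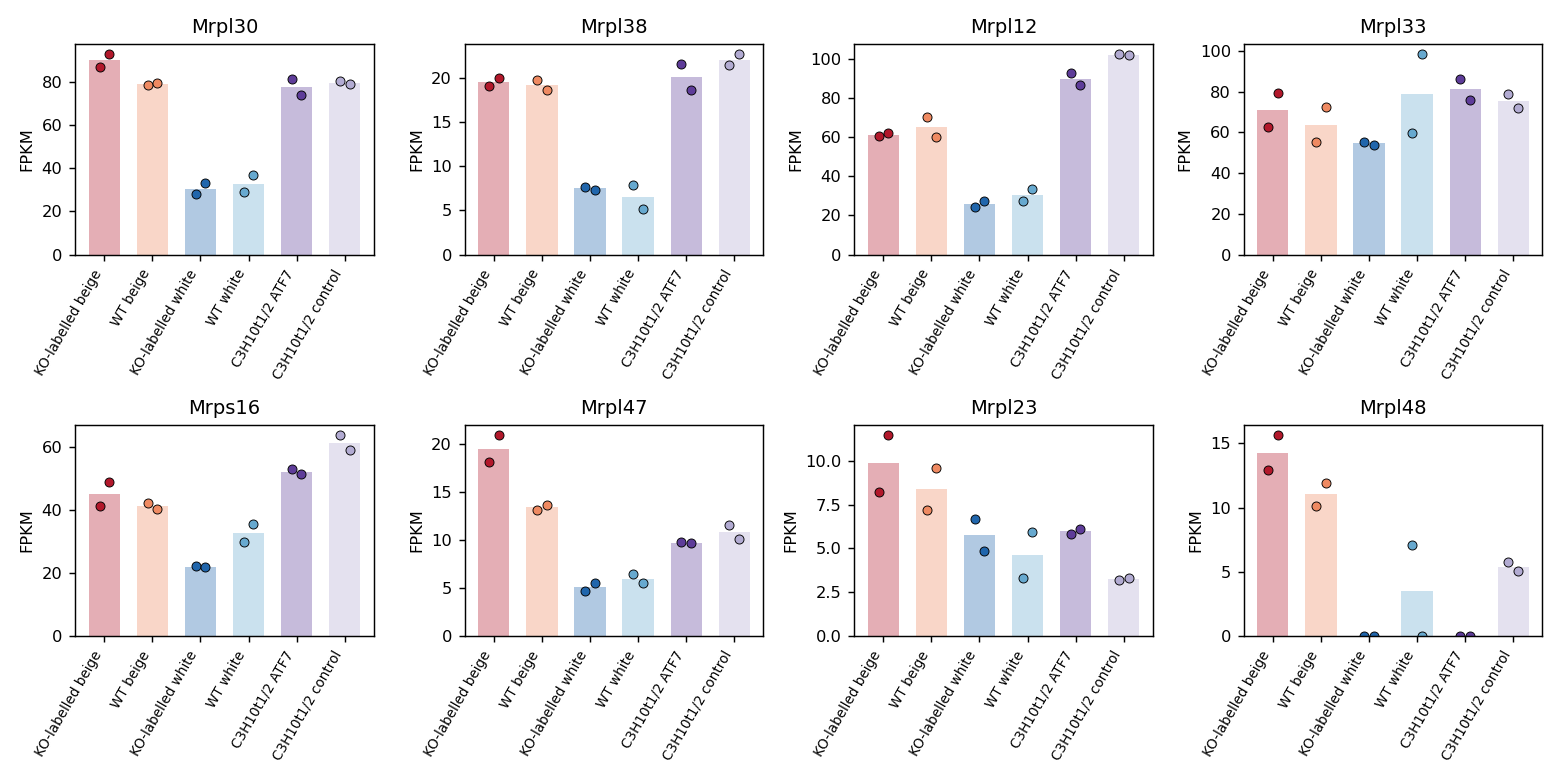
FPKM of 8 genes in each library; bars are means of 2 libraries and points are the libraries, with primary cultures in the 4 left columns and C3H10t1/2 in the 2 right ones. Mrpl30, Mrpl38, Mrpl12 and Mrpl47 are lower in white, and Mrpl33 overlaps between WT beige and WT white but not between the KO-labelled cultures. Mrps16 is lowest in KO-labelled white at 22.1 and 21.98, Mrpl23 is higher with ATF7 overexpressed, and Mrpl48 alternates between 0 and values of 5.04 or more.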

How the data were processed

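Fragments were sequenced from rRNA-depleted, directional libraries, 36 bases from either end, per the labels' protocols. The authors deposited 1 FPKM value per gene and library, with mm10 as the build per the submitters' processing notes. Which aligner, quantifier and annotation they ran was not given in the sources used here. Depth is unknown.

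Members and gene lists were chosen with earlier results of these data known. Starts have 1 added, after which 40 of 77 member starts equalled RefSeq. Values were tested as log2(FPKM + 1) with limma 3.58.1 (eBayes with trend, two-sided) in R 4.3.3, for entries that reached 1 FPKM in 2 or more of the libraries fitted. The 8 primary libraries were fitted together (11294 entries, 4 residual degrees of freedom) and the 4 C3H10t1/2 libraries on their own (9981 entries, 2 degrees of freedom). P-values were adjusted by Benjamini-Hochberg over all entries, with a threshold of 0.05. The fit was checked on simulated data without entries at 0. The changes put in were larger than the median genotype differences above, so the check does not cover differences of that size.

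Named by rule were the 4 highest and 4 lowest means, the 4 largest called rises and falls, the 4 smallest beige minus white differences, members called between genotypes or with ATF7 overexpressed, members at 0 in a group, and Mrpl12, Mrpl10, Mrps12, Ict1 and Mrps36; of other lists, up to 4 by p. Alternatives covered the pseudocount, the filter, scaling, small RNA entries, entries at 0, the trend, a replicate block, the set of libraries fitted, and leaving out each library. Same-numbered libraries correlated in their deviations between −0.10 and 0.15, so the numbers were not taken to pair samples.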

Additional observations from a re-analysis of the deposited data

How the results depend on the processing

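The counts of genes called in beige against white stayed within 1.5 times of 75 (KO-labelled) and 62 (WT) under every alternative tried, at 65 to 76 and 53 to 64. The KO-labelled median of 0.96 was 1.04 with a pseudocount of 0.1, 0.865 with quantile normalization, 1.07 with median centring and 0.885 with small RNA entries left out, and 0.875 to 1.05 leaving out a library each. Between KO-labelled and WT white, 0 genes became 1 with quantile normalization, 1 with median centring, 1 with entries at 0 left out and 3 (Mrpl9, Mrps16, Mrps18b) with all 12 libraries fitted, and 0 to 5 leaving out a library, 5 without WT white replicate 1 and 1 (Mrpl48) without WT white replicate 2. The interaction gave 0 to 1 leaving out a library (Mrpl48, without WT white replicate 2). In beige the genotype median of 0.12 was 0.041 with quantile normalization and 0.064 to 0.176 leaving out a library. With overexpression, 2 calls became 1 with no filter, 1 with entries at 0 left out and 1 to 1 leaving out a library, and the median of −0.10 became −0.035 with small RNA entries left out and −0.182 to −0.054 leaving out a library. Small WT beige minus white differences reversed for Mrpl41 (0.027 with quantile normalization and 0.034 with median centring), Mrpl50 (0.031 with median centring), Mrps26 (−0.054) and Mrpl36 (−0.038), both with small RNA entries left out. Leaving out a library each, they ran from −0.248 to 0.098 for Mrpl41, −0.242 to 0.086 for Mrpl50, −0.096 to 0.178 for Mrps26 and −0.226 to 0.336 for Mrpl36. The cause of these changes was not tested. Scaling moved the median of all entries in WT beige against white from −0.10 to 0.02 (quantile), 0.01 (centring) and −0.19 (small RNA left out), and in KO-labelled cultures from −0.06 to 0.06, 0.05 and −0.17. The share of all calls that were higher was 40.2% in WT beige against white and 50.9% and 51.4% with quantile normalization and centring, 67.1% between KO-labelled and WT white and 50.4% and 52.8%, and 28.9% with overexpression and 45.7% with small RNA left out. A replicate block left every count of calls as it was except KO-labelled beige against white, 74 in place of 75 (Mrps25, adjusted p = 0.0522). FPKM without counts leaves the counting error of low genes such as Mrps25 unknown, and 2 libraries a group limit what could be called between genotypes.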
